A study of Mus musculus with 6 samples.

Results

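The 35 genes described here encode the enzymes of cholesterol synthesis, the regulators of that pathway, sterol carriers and exporters, and the enzymes that build and desaturate fatty acids. They were listed by function and not by a cut on measured values, with earlier results of these data known, and all 35 were among the 27179 genes counted. The libraries were made from NP-binding IgG1+ germinal center (GC) B cells of the spleen, 1 from wild-type (WT) mice and 1 from mice lacking the IL-21 receptor (Il21r-/-) on each of days 7, 10 and 14 after immunization. Mice of both groups were of C57BL/6 background and were given the hapten NP coupled to the carrier protein KLH in alum by the intraperitoneal route. The sort took cells that bound NP and carried B220 and IgG1 but not CD138, IgM, IgD, Gr1 or CD38, after enrichment of IgG1+ cells on magnetic beads. The methods state for nearly all experiments of the study that the mice were irradiated Ly5.1 hosts reconstituted with WT or Il21r-/- bone marrow, so that in the Il21r-/- group the receptor was missing from all cells of donor marrow and not from B cells alone, and residual host cells may have remained. The labels and the methods differ on how many mice stand behind a library, and p-values then measure only the spread between these 6 libraries. The comparison of genotypes asked which transcripts of GC B cells differ when IL-21 cannot signal, and the days asked whether that difference changes as the GC response proceeds.

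Cholesterol is built from acetyl-CoA through mevalonate and the isoprenoids, then through squalene and lanosterol, and the isoprenoids also serve to anchor small GTPases to membranes. The pathway is controlled by SREBP transcription factors, which are held in the endoplasmic reticulum by SCAP and INSIG proteins when sterols are plentiful and travel to the nucleus when sterols are scarce. When sterols accumulate, oxysterols activate the LXR receptors, which raise the sterol exporters Abca1 and Abcg1. Fatty acids are built by Acaca and Fasn from the acetyl-CoA that Acly supplies, lengthened by elongases such as Elovl6, and given double bonds by the Scd and Fads desaturases. GC B cells divide rapidly and need membrane lipid for each division.

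The reads assigned to genes numbered 21353438 to 27435124 per library. Levels are given as CPM, the counts of a gene scaled by the total of its library, and levels of different genes are compared only as CPM per kilobase of gene length (RPKM). Il21r was lower in the Il21r-/- library on each day, with 106, 128 and 113 CPM against 346, 263 and 247 CPM in WT on days 7, 10 and 14. Which exons the deletion removes is not given in the sources used here. Of 11 GC B cell markers, S1pr2 (443 to 621 CPM) and Bcl6 (145 to 239 CPM) were abundant in every library and higher in WT on each day. Fas (141 to 196 CPM) and Cd79b (2079 to 3476 CPM) were abundant as well and higher in Il21r-/- on each day. Of 8 T cell genes, Cd3e and Cd8a stayed under 0.1 CPM and Cd3d reached 0.602 CPM. Thy1 was at 0.656 to 2.92 CPM, and Lck was abundant at 80.8 to 121 CPM. Sdc1, which encodes the CD138 that the sort selected against, stayed under 1 CPM. Of other plasma cell genes, Jchain (2283 to 3314 CPM) and Xbp1 (198 to 305 CPM) were abundant in every library. Among the other markers that the sort selected against, Ighd was at 0.983 to 1.68 CPM. Cd38 was at 2.29 to 26.6 CPM, highest on day 7 in both genotypes, and Ighm was abundant at 217 to 485 CPM. In such sorted bulk RNA, fewer cells of a type and less RNA per cell cannot be told apart.

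Promoter sequence was looked up because the genes of sterol synthesis are classic shared targets of the SREBP factors. RefSeq promoter windows on GRCm38.p6, from 250 bases before to 50 bases after a start site, were at hand for 27 of the 35 genes. The other 8 were Fdps, Fdft1, Sqle, Stard4, Abcg1, Scd1, Scd2 and Fads1. The motifs were searched on both strands as a sterol response element core (TCACNCCAC), the CCAAT box that NF-Y is known to bind, the GC box of SP1 (spelled GGGCGG) and an E-box (CACGTG). Stretches before the start site are shown for Lss, Elovl6 and Fads2, the genes that were higher in WT in both fits of the genotype comparison, for Hmgcs1 with its sterol response element core, for Insig1 as a regulator with an E-box, and for the exporter Abca1. Each reads 5′ to 3′ on the strand of its gene, and capitals mark the bases of a motif match. The stretches of Lss and Abca1 were cut where the annotated gene begins.
Lss chr10:76531355-76531564 (plus strand): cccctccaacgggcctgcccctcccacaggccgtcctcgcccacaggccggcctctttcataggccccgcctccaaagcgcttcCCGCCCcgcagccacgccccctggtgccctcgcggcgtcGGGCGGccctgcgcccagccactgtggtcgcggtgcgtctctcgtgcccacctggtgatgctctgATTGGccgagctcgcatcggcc
Hmgcs1 chr13:119690101-119690350 (plus strand): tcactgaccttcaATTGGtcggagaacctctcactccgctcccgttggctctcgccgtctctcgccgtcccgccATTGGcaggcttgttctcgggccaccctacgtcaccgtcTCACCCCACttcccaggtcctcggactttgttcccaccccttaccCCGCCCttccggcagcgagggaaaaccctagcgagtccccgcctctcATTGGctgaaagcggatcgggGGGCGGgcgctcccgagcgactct
Insig1 chr5:28071162-28071411 (plus strand): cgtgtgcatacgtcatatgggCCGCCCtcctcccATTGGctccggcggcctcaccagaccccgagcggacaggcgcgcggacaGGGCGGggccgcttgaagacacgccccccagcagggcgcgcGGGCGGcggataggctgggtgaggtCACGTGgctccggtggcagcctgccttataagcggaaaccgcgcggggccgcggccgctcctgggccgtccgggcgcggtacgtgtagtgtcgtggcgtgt
Elovl6 chr3:129532136-129532385 (plus strand): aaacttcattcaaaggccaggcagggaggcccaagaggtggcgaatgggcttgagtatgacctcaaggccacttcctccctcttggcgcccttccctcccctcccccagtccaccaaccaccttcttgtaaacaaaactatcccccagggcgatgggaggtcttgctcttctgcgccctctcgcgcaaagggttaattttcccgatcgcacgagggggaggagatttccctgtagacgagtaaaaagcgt
Fads2 chr19:10101504-10101753 (minus strand): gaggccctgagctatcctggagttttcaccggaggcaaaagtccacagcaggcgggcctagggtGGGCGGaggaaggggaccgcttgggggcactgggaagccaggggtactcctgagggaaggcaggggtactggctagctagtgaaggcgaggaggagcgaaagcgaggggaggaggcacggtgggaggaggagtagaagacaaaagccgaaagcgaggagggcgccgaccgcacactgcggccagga
Abca1 chr4:53159989-53160145 (minus strand): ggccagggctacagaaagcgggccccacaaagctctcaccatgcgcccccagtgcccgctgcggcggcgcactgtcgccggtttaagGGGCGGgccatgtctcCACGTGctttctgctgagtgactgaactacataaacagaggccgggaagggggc

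The 6 stretches differed in what they held. Hmgcs1 carried the sterol response element core 137 bases before its start site, between CCAAT boxes at -176 and -45, and was the only gene of the 27 with that core. Lss carried GC boxes at -166 and -127 and a CCAAT box at -62, while no motif match fell in the Elovl6 stretch and only a GC box at -186 in that of Fads2. Over the windows of the 27 genes, CCAAT was found in 21 of 35 windows (60%) against 37.4% of all 32851 RefSeq promoter windows, GGGCGG in 26 (74.3%) against 35.7%, CACGTG in 7 (20%) against 7.15%, and TCACNCCAC in 1 (2.86%) against 1.24%. Among the 8 genes with a window that were higher in WT with day as a block, 6 held a CCAAT box and 6 a GC box, and among the other 19 genes 14 and 16 did. A match is a run of letters and was not tested as a binding site.

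**Figure D1:**
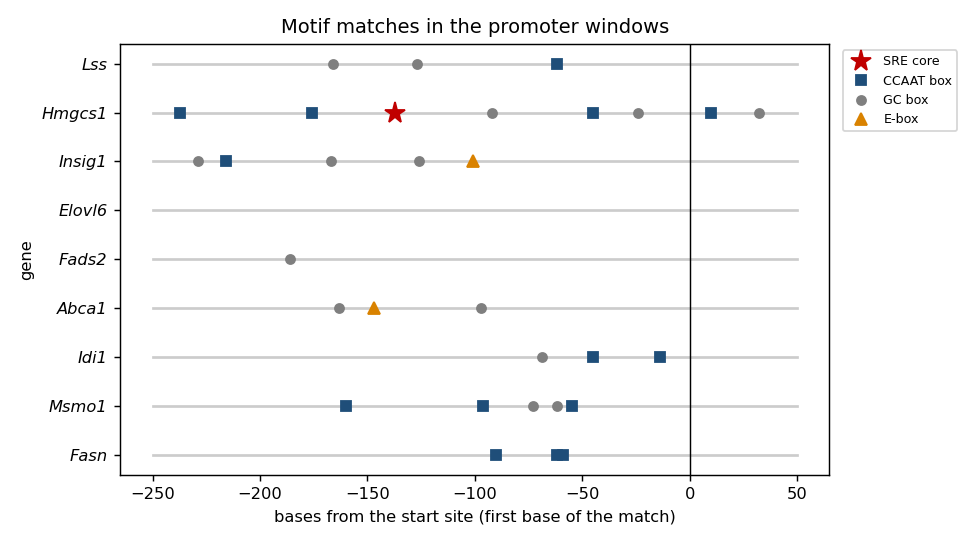
Positions of motif matches in the promoter windows of 9 genes, in bases from the start site, with each symbol at the start of a match. Of the windows drawn, the Hmgcs1 window alone holds the sterol response element core, and the Elovl6 window holds none of the 4 motifs.

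Per length, the levels of the 35 genes spanned a wide range. Idi1, the isomerase of isoprenoid synthesis, had the highest median over the 6 libraries with 97.4 RPKM, followed by the desaturase Scd1 (90.3 RPKM), the sterol methyl oxidase Msmo1 (89.3 RPKM) and the sterol transcription factor Srebf2 (76.4 RPKM). The lowest were Elovl6 (0.659 RPKM), Abcg1 (1.48 RPKM) and Acaca (1.56 RPKM). Within their roles the lowest medians were those of Mvd among the mevalonate enzymes (15.0 RPKM), Tm7sf2 among the sterol enzymes (5.07 RPKM) and Scap among the SREBP regulators (9.65 RPKM). Nr1h2, which encodes LXR beta, was the highest of the transport and LXR genes (31.3 RPKM), while Nr1h3, which encodes LXR alpha, had only 6 to 20 counts per library. Mvd, the decarboxylase of the mevalonate branch, moved little between libraries, and its level in CPM was 27.6, 27.8 and 28 in WT and 31.7, 26.2 and 30.0 in Il21r-/- on days 7, 10 and 14.

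Over the 3 days, 3 genes of lipid synthesis were higher in WT and the sterol exporter Abcg1 was higher in Il21r-/-. Elovl6 was 2.85-fold and Fads2 2.93-fold higher in WT, and Abcg1 was 3.97-fold higher in Il21r-/-. Lss was 1.34-fold higher in WT. All 35 genes passed the filter on low counts and were among the 11005 genes tested with edgeR's quasi-likelihood test of genotype plus a linear effect of day, with adjusted p-values over all 11005 genes and a threshold of 0.05. Of the 35 genes 4 passed, where 5.92% of all genes tested passed. These were Elovl6, Fads2 and Lss, higher in WT, where 1.4% of all genes were, and Abcg1, higher in Il21r-/-, where 4.52% of all genes were. Log2 fold changes are given as WT over Il21r-/-, so that positive values mean higher in WT. Their median over the 35 genes was 0.12, against -0.01 over all genes tested, with 25 values above 0 and 10 below. Without the WT library of day 14 only Elovl6 passed (1 of 35), where 1.24% of all genes did, and without the Il21r-/- library of day 10 there were 10 of 35, where 19.1% of all genes passed.

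The 2 libraries of a day deviated together from the means of their genotypes, to which a trend with day shared by the genotypes can contribute. A second fit treated the day as a block. In that fit 12 of the 35 genes passed, each of them higher in WT, where 22.9% of all genes passed, 9.33% as higher in WT and 13.6% as higher in Il21r-/-. The 12 were Hmgcs1, Idi1 and Fdps of the mevalonate branch, Fdft1, Sqle, Lss and Msmo1 of the sterol branch, the regulator Insig1, and Fasn, Elovl6, Fads1 and Fads2 of fatty acid synthesis. The count was 6 without the WT library of day 14 (9.35% of all genes) and 7 without the Il21r-/- library of day 14 (10.2%). The block fit had 2 residual degrees of freedom and borrowed more across genes than the fit with linear day, with a median of 29.1 prior degrees of freedom against 5.73. In the block fit Abcg1 kept its log2 fold change (-1.97, SE 0.49) with an adjusted p of 0.102. By direction alone, 19 of the 35 genes were higher in WT on all 3 days, where 25.4% of all genes were, and 3 were higher in Il21r-/- on all 3 days, where 27.9% of all genes were. In 10 of the 35 genes every WT library lay above every Il21r-/- library, where 8.33% of all genes did so. The reverse held for 1 gene, Abcg1, where it held for 10% of all genes.

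**Figure D2:**
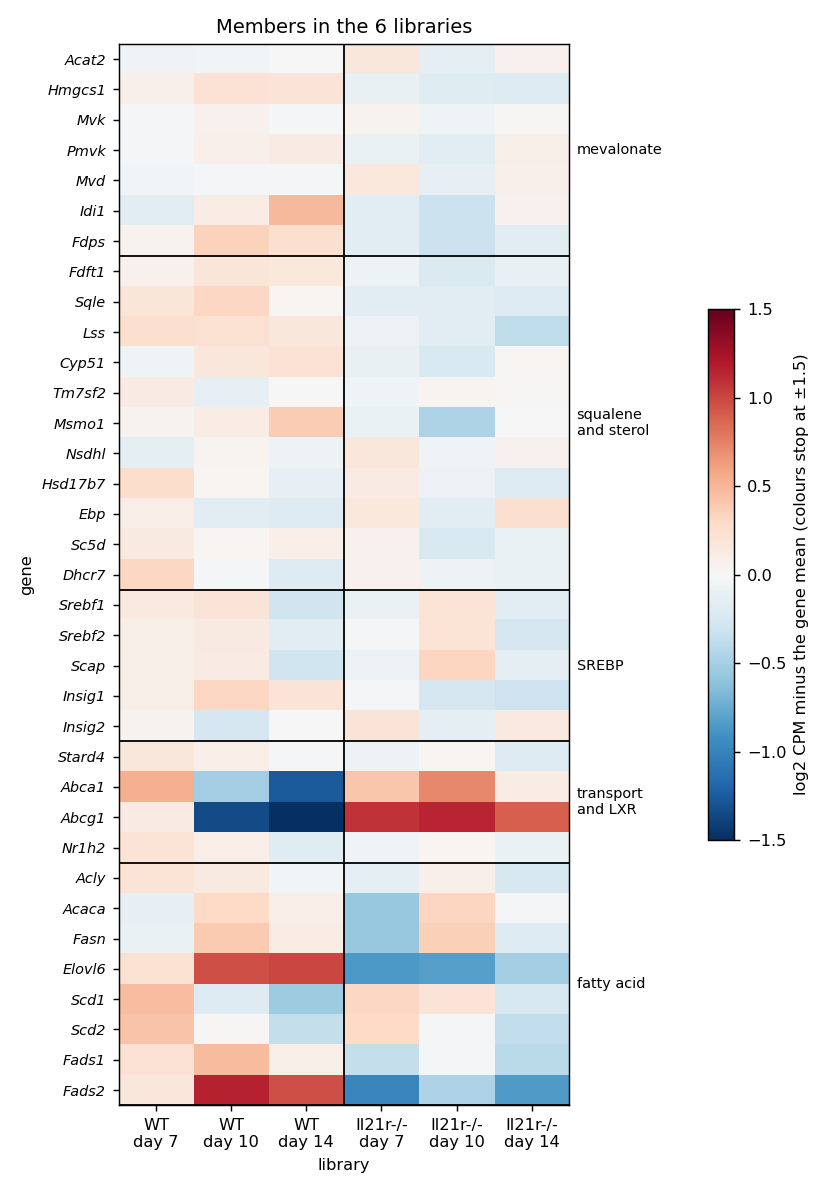
Expression of the 35 genes in the 6 libraries, as log2 CPM minus the mean of the gene over the libraries, with colours that stop at the ends of the scale and horizontal lines between roles. Elovl6 and Fads2 are highest in WT on days 10 and 14, Abcg1 is lowest there, and most other rows differ by small amounts.

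**Figure D3:**
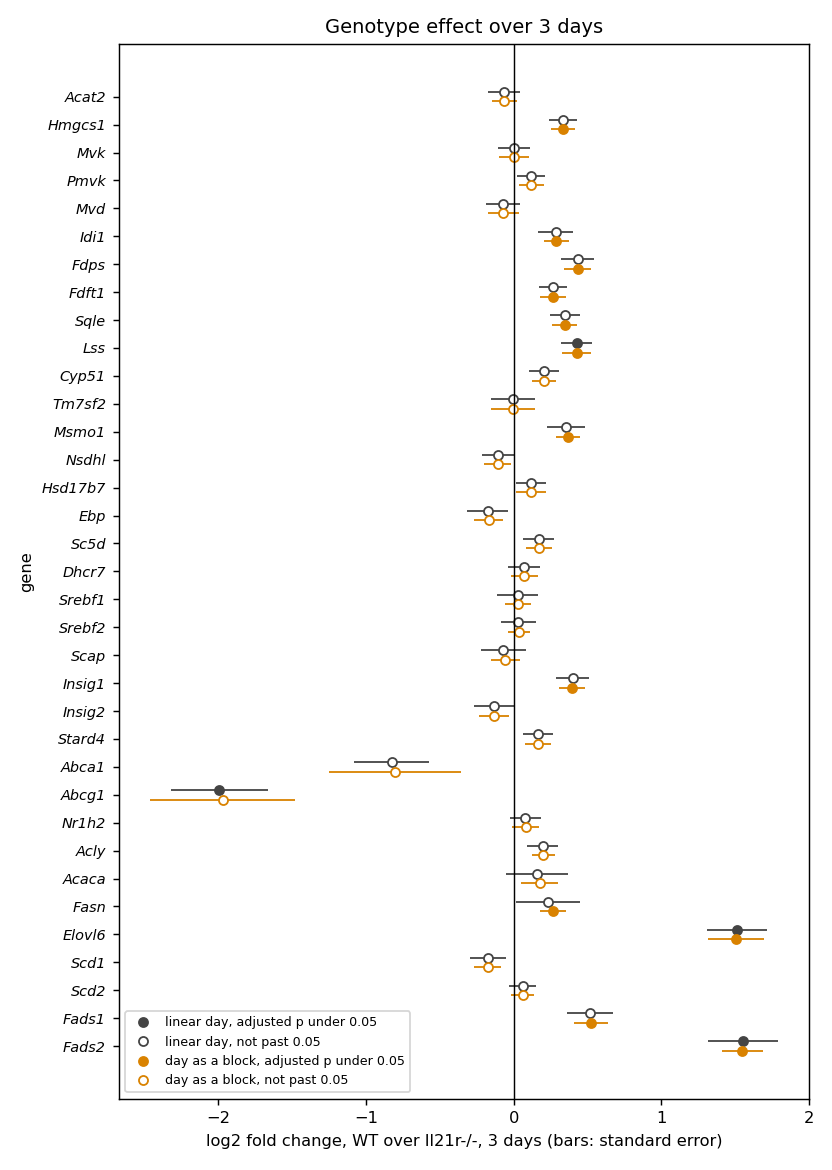
Log2 fold change of WT over Il21r-/- over the 3 days for the 35 genes, with standard errors, from the fit with linear day (grey) and the fit with day as a block (orange), filled where the adjusted p was under 0.05. The 2 fits give nearly the same fold changes, with 4 genes past the threshold in the first and 12 in the second.

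The fatty acid genes held the largest difference in favour of WT. Elovl6, an elongase of saturated and monounsaturated fatty acids (chromosome 3, 129532386 to 129638495), had 4.91, 8.29 and 8.48 CPM in WT and 2.27, 2.32 and 2.93 CPM in Il21r-/- on days 7, 10 and 14. The lowest WT library lay above the highest Il21r-/- library. The means were 7.23 ± 2.01 CPM in WT and 2.51 ± 0.367 CPM in Il21r-/- (SD, n = 3), and the log2 fold change was 1.51 (SE 0.20, adjusted p = 0.00407, edgeR). Fads2, the desaturase that begins the synthesis of long polyunsaturated fatty acids (chromosome 19, 10062765 to 10101503), had 12.2, 24.1 and 21.2 CPM in WT and 5.45, 7.85 and 5.98 CPM in Il21r-/-. Again the groups did not overlap, and the log2 fold change was 1.55 (SE 0.24, adjusted p = 0.00826, edgeR). Without the WT library of day 14 the adjusted p of Fads2 was 0.056, while Elovl6 passed without any of the 6 libraries in turn (0.000357 to 0.0423). Both genes were low, with 52 counts of Elovl6 and 125 of Fads2 in the Il21r-/- library of day 7.

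Fads1, the desaturase that acts after Fads2 and whose gene lies beside it on chromosome 19 (10182877 to 10196874), had 18.6, 22.3 and 17.1 CPM in WT and 12.5, 15.8 and 12.1 CPM in Il21r-/-. It was higher in WT on every day without overlap, by a log2 fold change of 0.52 (SE 0.16), with an adjusted p of 0.1 with linear day and 0.00117 with day as a block. Fasn, the fatty acid synthase, had 108, 151 and 124 CPM in WT and 77.5, 148 and 101 CPM in Il21r-/-. Its groups overlapped, since both libraries of day 10 were the highest of their genotype, and its log2 fold change of 0.23 (SE 0.22, adjusted p = 0.589) became 0.27 (SE 0.087, adjusted p = 0.0255) with day as a block. Acaca, the acetyl-CoA carboxylase, ranged from 12.6 to 16.9 CPM in WT and from 9.21 to 17.1 CPM in Il21r-/-, and was the lowest in the Il21r-/- library of day 7, as Fasn was. Acly, the ATP citrate lyase, was higher in WT on each day, with 190 to 226 CPM against 166 to 206 CPM (log2 fold change 0.20, SE 0.11, adjusted p = 0.329). The stearoyl-CoA desaturases Scd1 and Scd2 did not pass in either fit, with log2 fold changes of -0.17 (SE 0.12) and 0.06 (SE 0.09).

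**Figure D4:**
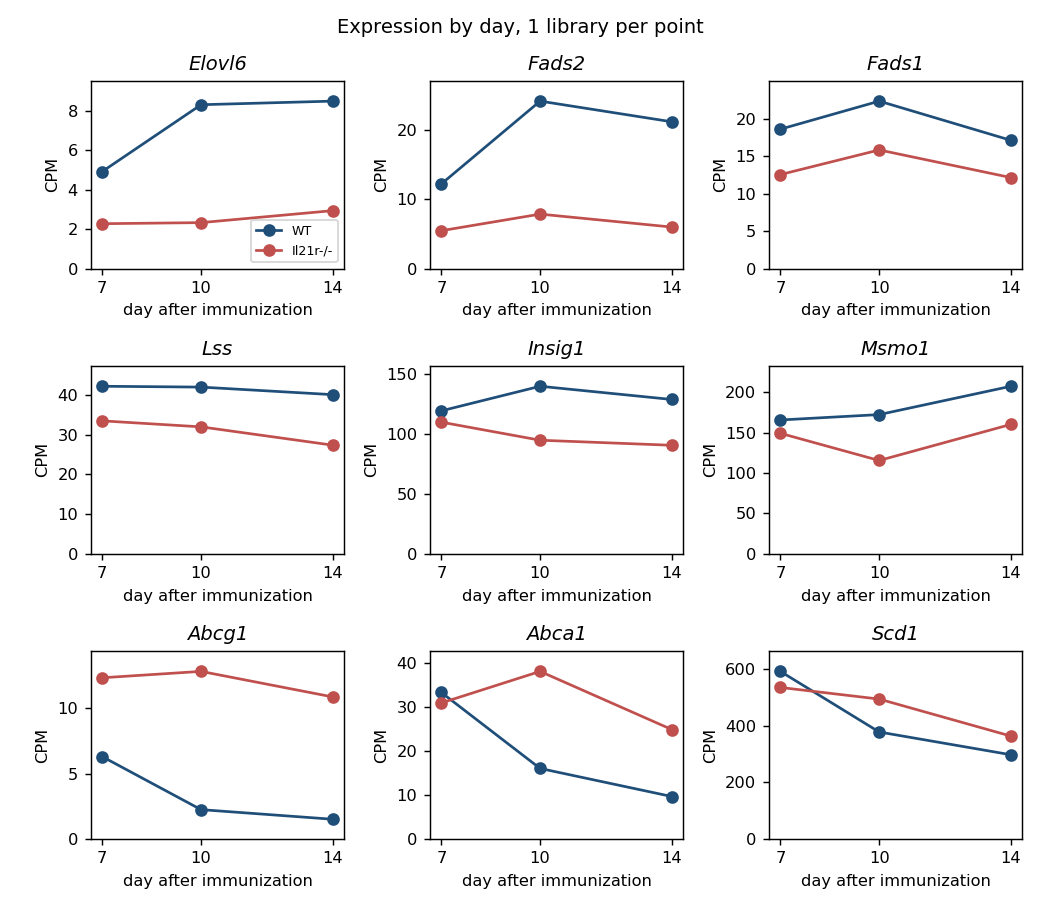
CPM of 9 genes on days 7, 10 and 14, with 1 library per point, WT in blue and Il21r-/- in red. Elovl6 was at 4.91 to 8.48 CPM in WT and 2.27 to 2.93 CPM in Il21r-/-, Abcg1 and Abca1 were lower on later days in WT, and Scd1 was lower on later days in both genotypes.

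Along the mevalonate branch the differences were small and in favour of WT in 5 of 7 genes, with a median log2 fold change of 0.12. Hmgcs1, the HMG-CoA synthase, had 158, 174 and 171 CPM in WT and 138, 131 and 129 CPM in Il21r-/-. The groups did not overlap, and the log2 fold change was 0.33 (SE 0.094, adjusted p = 0.0776 with linear day and 0.00277 with day as a block). Fdps, which makes farnesyl pyrophosphate, had 60.7, 74.4 and 69.0 CPM in WT and 52.1, 46.5 and 52.3 CPM in Il21r-/-, with a log2 fold change of 0.43 (SE 0.11, adjusted p = 0.0592, and 0.000982 with the block). Its groups did not overlap either. Idi1 had 257, 311 and 402 CPM in WT against 255, 230 and 301 CPM in Il21r-/-, so that it was nearly equal on day 7 and 1.35-fold and 1.33-fold higher in WT on days 10 and 14 (over 3 days 0.28, SE 0.12, adjusted p = 0.206, and 0.0122 with the block). The remaining 4 enzymes, Acat2, Mvk, Pmvk and Mvd, had log2 fold changes from -0.07 to 0.12 and adjusted p-values of 0.527 and above with linear day.

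In the sterol branch 8 of 11 genes had values above 0, with a median of 0.17. Lss, the lanosterol synthase that closes the sterol rings (chromosome 10, 76531565 to 76557139), had 42.2, 42.0 and 40.1 CPM in WT and 33.5, 32.0 and 27.4 CPM in Il21r-/-, without overlap. Its log2 fold change of 0.43 (SE 0.10) lay at the threshold with an adjusted p of 0.0494, and passed clearly with the block (0.00171). Leaving out either library of day 7 or day 14, or the WT library of day 10, gave Lss adjusted p-values of 0.0919 to 0.34 with linear day. Fdft1, the squalene synthase, had 71.6, 77.9 and 76.6 CPM in WT and 64.9, 59.3 and 63.8 CPM in Il21r-/-, and Sqle, the squalene epoxidase, had 120, 131 and 107 CPM against 94.0, 94.8 and 92.0 CPM. Msmo1 had 166, 172 and 207 CPM in WT and 149, 115 and 160 CPM in Il21r-/-, where the lowest WT value exceeded the highest of Il21r-/- by a narrow margin. The log2 fold changes of Fdft1, Sqle and Msmo1 were 0.27 (SE 0.097), 0.35 (SE 0.099) and 0.36 (SE 0.13), with adjusted p-values of 0.16, 0.0821 and 0.16 with linear day and 0.024, 0.00252 and 0.00177 with day as a block.

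The other 7 sterol enzymes did not pass in either fit. Cyp51, the lanosterol demethylase, was higher in WT on each day, with 232 to 282 CPM against 207 to 249 CPM (log2 fold change 0.20, SE 0.10, adjusted p = 0.286, and 0.0606 with the block). Tm7sf2, Nsdhl, Hsd17b7, Ebp, Sc5d and Dhcr7 had log2 fold changes from -0.18 (Ebp) to 0.17 (Sc5d). Tm7sf2, a sterol reductase, was the least expressed of them, with 8.10, 6.83 and 7.45 CPM in WT and 7.20, 7.70 and 7.55 CPM in Il21r-/-.

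Of the 5 SREBP regulators 1, Insig1, was higher in WT with day as a block, and none passed with linear day. Insig1, itself a known SREBP target that retains SCAP in the endoplasmic reticulum, had 119, 140 and 129 CPM in WT and 110, 94.7 and 90.5 CPM in Il21r-/-. The groups did not overlap, and the log2 fold change was 0.40 (SE 0.11, adjusted p = 0.0748 with linear day and 0.00149 with day as a block). Its paralog Insig2 had 29.1, 23.7 and 28.2 CPM in WT and 32.2, 25.6 and 31.1 CPM in Il21r-/-, slightly higher in Il21r-/- on each day (log2 fold change -0.13, SE 0.14, adjusted p = 0.636). Srebf1, which encodes SREBP factors of fatty acid synthesis, had 92.4, 96.1 and 68.1 CPM in WT and 78.3, 96.7 and 75.2 CPM in Il21r-/-, and the log2 fold change was 0.03 with a 95% interval of -0.24 to 0.30. Srebf2, which encodes the main factor of sterol synthesis, had 361, 375 and 302 CPM against 337, 393 and 285 CPM (0.03, interval -0.20 to 0.27). Scap, the SREBP escort protein, had 44.0, 45.0 and 33.5 CPM against 38.7, 51.7 and 37.4 CPM (-0.07, interval -0.37 to 0.23). For these 3 genes the direction turned when certain libraries were left out.

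Of the 2 sterol exporters, Abcg1 passed as higher in Il21r-/- with linear day but not with day as a block, and Abca1 did not pass in either fit. Abcg1 (chromosome 17, 31057694 to 31117984) had 6.30, 2.24 and 1.5 CPM in WT and 12.4, 12.8 and 10.9 CPM in Il21r-/-, so that every Il21r-/- library lay well above every WT library. In WT this gene had only 55 and 32 counts on days 10 and 14. The means were 3.35 ± 2.59 CPM in WT and 12 ± 1.02 CPM in Il21r-/- (SD, n = 3). The log2 fold change was -1.99 with linear day (SE 0.33, adjusted p = 0.0112, edgeR), and the adjusted p was 0.102 with day as a block. With linear day Abcg1 no longer passed without the WT library of day 14 (log2 fold change -1.70, adjusted p = 0.101) or without the Il21r-/- library of day 10 (-1.95, adjusted p = 0.0732). Abca1 (chromosome 4, 53030789 to 53159988) had 33.2, 16.0 and 9.60 CPM in WT and 30.9, 38.0 and 24.8 CPM in Il21r-/-. The groups overlapped through the WT library of day 7, and the log2 fold change was -0.83 (SE 0.25, adjusted p = 0.103, and 0.388 with day as a block). Without the WT library of day 7 it was -1.17 (adjusted p = 0.0301). In the same libraries the 11 myeloid marker genes summed to 8.82 to 15.6 CPM in WT and 12.8 to 22.4 CPM in Il21r-/-, with Lyz2 at 0.528 to 3.28 CPM. All 5 tested genes were below 0, and 1, Cd68, passed as higher in Il21r-/-, where 4.52% of all genes did. With day as a block Cd68, Adgre1 and C1qa passed (3 of 5), all higher in Il21r-/-, where 13.6% of all genes were. The part of the myeloid genes in the exporter result was not tested. Stard4, a sterol carrier of the cytosol, and Nr1h2 did not pass, with log2 fold changes of 0.16 (SE 0.10) and 0.08 (SE 0.11).

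Taken day by day, the same 3 genes passed on days 10 and 14, and no gene passed on day 7. These tests used edgeR's likelihood ratio test with a mean for each day, 1 library per genotype on a day, and the spread borrowed from the fit over all 6 libraries. On day 7, 0 of the 35 genes passed with edgeR and 0 with DESeq2, where 1.07% of all genes tested passed with edgeR, while 2 genes, Elovl6 and Fads2, had an unadjusted p under 0.05. On day 10, Elovl6, Fads2 and Abcg1 passed, where 3.1% of all genes did, and on day 14 the same 3 genes passed, where 3.28% did. The log2 fold changes of Elovl6 were 1.11, 1.83 and 1.53 on days 7, 10 and 14, with adjusted p-values of 0.277, 0.000335 and 0.00498. Those of Fads2 were 1.16, 1.62 and 1.82, with adjusted p-values of 0.362, 0.0103 and 0.00314. Those of Abcg1 were -0.97, -2.52 and -2.86, with adjusted p-values of 0.999, 0.00249 and 0.000556, so that Abcg1 was 1.96-fold, 5.73-fold and 7.24-fold higher in Il21r-/-. The 3 genes had the same sign on day 7. With DESeq2's Wald test Elovl6 did not pass on day 10 (adjusted p = 0.138) or day 14 (0.866), nor did Fads2 on day 14 (0.0948). Abca1 had log2 fold changes of 0.11, -1.25 and -1.37 and adjusted p-values of 0.999, 0.128 and 0.0769, and its day 7 value changed sign with DESeq2 (-0.06) and with linear day kept (-0.08).

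**Figure D5:**
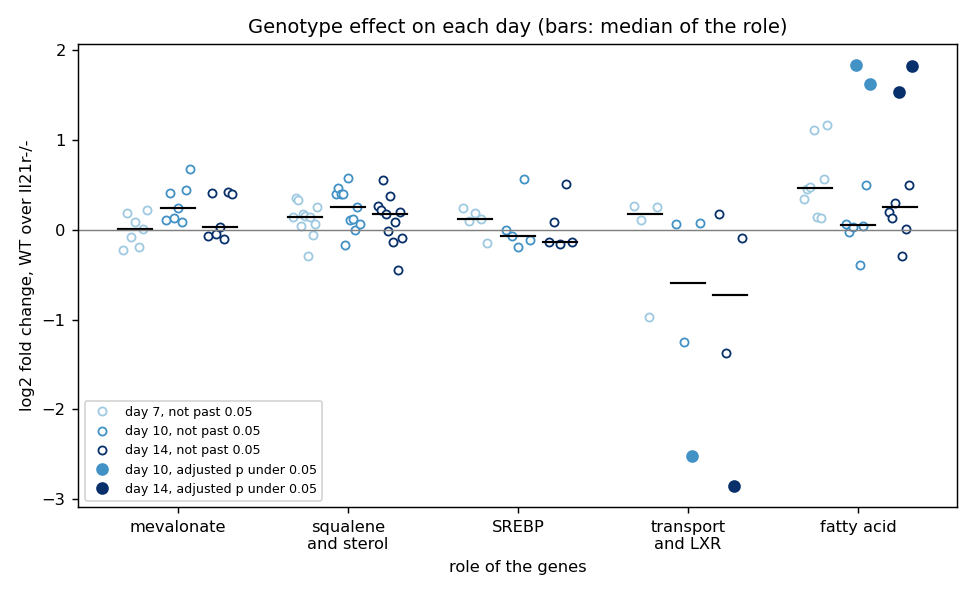
Log2 fold change of WT over Il21r-/- on each day, with 1 point per gene, grouped by role, bars at the median of a role, and filled points where the adjusted p was under 0.05. The filled points are Elovl6 and Fads2 at the top and Abcg1 at the bottom, on days 10 and 14. The medians of the SREBP genes lie from -0.14 to 0.12. Those of the mevalonate genes are 0.01, 0.24 and 0.03 on days 7, 10 and 14, and those of the sterol genes 0.14, 0.25 and 0.18.

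Between days 7 and 14 the stearoyl-CoA desaturases fell in both genotypes. Scd1, which makes oleate from stearate, had 593, 378 and 298 CPM in WT and 536, 495 and 364 CPM in Il21r-/-, a fall from day 7 to day 14 of 1.99-fold in WT and 1.47-fold in Il21r-/-. The trend common to both genotypes was a log2 change of -0.11 per day (SE 0.021, adjusted p = 0.0252, edgeR). Its neighbour Scd2 (chromosome 19, 44293676 to 44306864) had 185, 139 and 107 CPM in WT and 170, 135 and 107 CPM in Il21r-/-, a fall of 1.72-fold and 1.59-fold and a trend of -0.10 per day (SE 0.016, adjusted p = 0.0147). The 2 paralogs are similar in sequence, and how reads that match both were counted is not given in the sources used here. These 2 were the only genes of the 35 to pass in the day trend, where 4.43% of all genes passed and 3.36% passed as falling. Neither passed when a library of day 7 or day 14 was left out, with adjusted p-values from 0.0659 to 0.324. Idi1 had the opposite tendency, with a trend of 0.06 per day (SE 0.020, adjusted p = 0.105).

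Whether the change with day differed between genotypes was tested directly. With linear day, 0 of the 35 genes and 0% of all genes passed edgeR's quasi-likelihood test, and 0 of the 35 passed with DESeq2, while 2 genes, Abca1 and Abcg1, had an unadjusted p under 0.05. With day as a block, Abca1 and Abcg1 passed, where 0.282% of all genes did. The day trend in WT minus that in Il21r-/- was -0.21 per day for Abca1 (SE 0.042, adjusted p = 0.000793) and -0.28 per day for Abcg1 (SE 0.065, adjusted p = 0.00557). The 2 fits differ in more than the block. The block fit of the trend difference had 1 residual degree of freedom and, for most genes, an unlimited prior, so that its p-values rest on the spread estimated over all genes, while the fit with linear day had 2 residual and a median of 5.27 prior degrees of freedom. Between the libraries of days 7 and 14, Abca1 was lower by 3.46-fold in WT and 1.24-fold in Il21r-/-, and Abcg1 by 4.21-fold and 1.14-fold.

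Genes around the 35 in the same pathways were counted from lists. Of all genes tested 5.92% passed over the 3 days, 1.4% as higher in WT and 4.52% as higher in Il21r-/-. With day as a block 22.9% of all genes passed, 9.33% as higher in WT and 13.6% as higher in Il21r-/-. Of 13 tested genes of sterol uptake, storage and transport, 12 had values below 0 (median -0.16) and 3 were higher in Il21r-/- over the 3 days. These were Npc1 and Npc2, which move cholesterol out of lysosomes, and Lipa, the lysosomal lipase that frees it from its esters. Npc1 had 20.8, 12 and 8.57 CPM in WT and 31.1, 28.1 and 15.7 CPM in Il21r-/- on days 7, 10 and 14 (log2 fold change -0.89, SE 0.14, adjusted p = 0.0101). Npc2 had a log2 fold change of -0.65 (SE 0.13, adjusted p = 0.0267) and Lipa of -0.58 (SE 0.12, adjusted p = 0.0229), and all 3 also passed with day as a block. In that fit 2 more of the 13 passed, Soat1, an enzyme of cholesterol ester storage, as higher in Il21r-/- (-0.29, SE 0.11, adjusted p = 0.0464) and Scarb1, a lipoprotein receptor, as higher in WT (0.49, SE 0.11, adjusted p = 0.00126). Of 12 tested genes of SREBP processing and degradation 1 passed, Fbxw7, a ubiquitin ligase subunit whose substrates include nuclear SREBPs, with 18.9, 24.7 and 27.3 CPM in WT and 30.5, 55.6 and 42.2 CPM in Il21r-/- (-0.86, SE 0.19, adjusted p = 0.0328). Of 16 further genes of the mevalonate branches and sterol metabolism 1 passed, Pggt1b, the beta subunit of a geranylgeranyl transferase, higher in WT (0.49, SE 0.12, adjusted p = 0.0457). With day as a block 3 of these 16 passed, Pggt1b and, higher in Il21r-/-, the electron carriers Cyb5a (-0.35, adjusted p = 0.00627) and Cyb5r3 (-0.31, adjusted p = 0.0101). In the SREBP processing list the block added Lpin1 as higher in Il21r-/- (-0.81, adjusted p = 0.0331). Of 16 further genes of fatty acid synthesis and elongation 0 passed in either edgeR fit and 0 had an unadjusted p under 0.05 with linear day, with log2 fold changes from -0.19 to 0.26.

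Other gene groups were measured in the same libraries. Over 20 cell cycle genes the summed level was 6887 to 8385 CPM in WT and 5586 to 6306 CPM in Il21r-/-, with 20 of 20 values above 0, a median log2 fold change of 0.37 and 1 gene, Rrm2, past the threshold, where 5.92% of all genes passed. With day as a block 17 of the 20 passed, where 22.9% of all genes did. That median exceeded the medians of the mevalonate (0.12), sterol (0.17) and fatty acid genes (0.22). Of 9 genes of naive or memory B cells 5 were higher in Il21r-/-, where 4.52% of all genes were. Ighm was higher in WT, where 1.4% of all genes were. The summed level of the 9 genes was 562 to 1237 CPM in WT and 948 to 1486 CPM in Il21r-/-. Of the adipocyte and stromal genes, Plin1, Col1a1, Col3a1 and Pdgfra were at 0 in every library, and the endothelial gene Cdh5 was at 0.375 to 0.873 CPM. Adipoq was at 0.476 to 1.18 CPM in WT and 2.53 to 6.70 CPM in Il21r-/-. The list, most of it Pecam1, summed to 25.3 to 50.9 CPM in WT and 43.5 to 68.9 CPM in Il21r-/-. Adipoq and Pecam1 both passed as higher in Il21r-/-, Pecam1 with a log2 fold change of -0.60 (SE 0.11, adjusted p = 0.0177). The plasma cell list, most of it Jchain, summed to 2524 to 2739 CPM in WT and 2774 to 3621 CPM in Il21r-/-. Within it Xbp1 was higher in Il21r-/- (log2 fold change -0.39, SE 0.089, adjusted p = 0.0396), Prdm1 was higher in WT (1.64, SE 0.33, adjusted p = 0.0216) at 1.39 to 1.83 against 0.262 to 0.682 CPM, and Sdc1, not tested, was higher in WT on each day. With day as a block Jchain and Irf4 also passed as higher in Il21r-/-. The T cell list, nearly all of it Lck, summed to 87.8 to 123 CPM in WT and 84.6 to 118 CPM in Il21r-/-. The erythroid list summed to 10.2 to 19.1 CPM in WT and 4.95 to 33.9 CPM in Il21r-/-. Only 2 of the 8 T cell genes and 3 of the 7 erythroid genes had enough counts to be tested. None of those tested passed. The 11 GC B cell genes summed to 6814 to 7689 CPM in WT and 7216 to 8403 CPM in Il21r-/-. Their values were above 0 in 7 and below 0 in 4, and 0 passed with linear day. With day as a block 7 of the 11 passed, where 22.9% of all genes did. Of these, 4 were higher in WT, and Fas, Cd79a and Cd79b were higher in Il21r-/-. The part of these groups in the results on lipid genes was not tested.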

How the data were processed

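For these counts the authors mapped single-end reads with Rsubread against mm10, assigned them to genes by featureCounts using the RefSeq annotation built into Rsubread, merged technical replicates, and deposited the raw whole-number counts. The submitters' processing notes also name CASAVA 1.8.2. Strand and multi-mapping settings are not given in the sources used here, so reads of overlapping genes and of paralogs such as Scd1 and Scd2 remain uncertain. The counts are without molecular identifiers. Gene symbols were matched from Entrez identifiers to RefSeq for 25275 of 27179 identifiers and to GENCODE for 18 more, and 1886 stayed without a symbol (1.57 to 2.24% of a library).

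Totals ranged from 21353438 to 27435124 counts. After removal of genes with aveLogCPM under 0 and of 137 genes (Y-chromosome, Xist, Ig variable), 11005 remained. With R 4.3.3 and edgeR 4.0.16, TMM factors (0.958 to 1.04) and robust dispersions on genotype plus linear day were estimated (3 residual and 3.58 to 5.73 prior degrees of freedom, biological coefficient of variation 13.1%). Effects over 3 days, the day trend and the trend difference were tested with glmQLFTest, and genotype effects on a day with glmLRT. The threshold was 0.05 after Benjamini-Hochberg adjustment across the 11005 genes. Standard errors came from the information matrix of the negative binomial fit. RPKM were computed from the gene lengths in the deposited count table.

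After the genotype means were subtracted, the libraries of a day correlated across genes with r = 0.64, 0.413 and 0.645 on days 7, 10 and 14. The linear effect of day was not subtracted, so a trend shared by the genotypes can enter these values. Pairing of the libraries beyond that trend was not measured. A second fit, with day as a block, was made after these values. Other alternatives were DESeq2 1.42.0 (size factors and Wald test), other filters, likelihood ratio tests, other day terms, and each library left out. The procedure was run on simulated counts with the same dispersion for every gene and no effect of day. That run cannot judge the choice between linear day and day as a block. The genes, lists and tests were chosen with earlier results of these data known. Genes were named by a rule: every gene of the 35 past a threshold, the highest and lowest per length of each role, the SREBP regulators, the exporters, and from the other lists those past the threshold over 3 days, at most 4 in each direction. Nr1h3, the genes past the threshold with the block alone and the leading marker genes were named after their values were seen.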

Additional observations from a re-analysis of the deposited data

Results flagged for a closer look

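Abca1 and Abcg1 were marked because their change with day differed between WT and Il21r-/- by the test of the difference itself, with day as a block. The trend in WT minus the trend in Il21r-/- was -0.208 per day on the log2 scale for Abca1 (SE 0.0422, adjusted p = 0.000793, edgeR) and -0.279 per day for Abcg1 (SE 0.0646, adjusted p = 0.00557, edgeR). With linear day the estimates were -0.20 and -0.28 per day and neither passed, with adjusted p-values of 1. The block fit had 1 residual degree of freedom and an unlimited prior for most genes. No cause was weighed.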

How the results depend on the processing

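With day as a replicate block 12 of the 35 genes passed over the 3 days in place of 4 (22.9% of all genes in place of 5.92%). For the trend difference 2 passed in place of 0 (0.282% of all genes in place of 0%). Over the 3 days with linear day, 7 passed with no filter on low counts, where 5.86% of all genes did. With the likelihood ratio test 10 passed (10.8% of all genes), and with DESeq2's Wald test 10 (8.64%). Leaving out each library gave 1 to 10 (1.24 to 19.1%). With the block, leaving out each library gave 6 to 15 (9.35 to 19.9% of all genes). DESeq2's size factors gave 13 with the block (24.1%), and both were chosen after seeing the data. On day 7, 1 gene (Fads2) passed with the dispersion from the block model, where 2.75% of all genes did. On day 10, 5 passed with linear day kept (6.56% of all genes) and 6 with the block dispersion (7.47%). On day 14, 1 passed with DESeq2 (0.845%) and 5 with the block dispersion (9.59%). In the day trend 4 passed with the likelihood ratio test (10.8% of all genes) and 0 with no genotype term (0.1%). With each library left out 0 to 5 passed (0 to 19.4%). Over all genes the count over 3 days ran from 136 to 2093 with each library left out, and was 991 of 16909 with no filter. It was 1193 with the likelihood ratio test, 951 with DESeq2's Wald test and 2519 with the block. On day 7 it ran from 32 (DESeq2) to 303 (block dispersion), on day 10 from 132 to 822 and on day 14 from 93 to 1055. For the day trend it ran from 0 (without the WT library of day 7) to 2124, with 11 without a genotype term, and for the trend difference from 0 to 31.

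The direction turned for Abca1 on day 7 (-0.055 with DESeq2's Wald test and -0.076 with linear day kept). With each library left out it turned for Srebf1 (-0.11 to 0.16 with linear day, -0.067 to 0.12 with the block), Srebf2 (-0.043 to 0.14 with linear day) and Scap (-0.23 to 0.082 with linear day, -0.17 to 0.019 with the block). No other gene followed across the alternatives changed direction. The causes were not tested. DESeq2's size factors left the 4 genes over 3 days as they were. With 1 library per genotype on a day, the day-wise tests rest on the spread between days.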

Other observations

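Genes of fatty acid oxidation, which breaks down what the synthesis genes build, were not higher in WT as a group. Of 20 such genes 14 had values below 0 over the 3 days, with a median log2 fold change of -0.07, against -0.01 over all genes tested. Decr1, a mitochondrial reductase for the breakdown of polyunsaturated fatty acids, was higher in Il21r-/-, with 24.6, 23.9 and 28 CPM in WT and 39.5, 35.9 and 53.3 CPM in Il21r-/- on days 7, 10 and 14 (log2 fold change -0.74, SE 0.13, adjusted p = 0.0142, edgeR). In the fit that pairs libraries by day, Decr1, Hadh, Eci2 and Etfb passed (4 of 20), all higher in Il21r-/-, where 22.9% of all genes passed and 13.6% passed as higher in Il21r-/-. The summed level of the 20 genes overlapped between genotypes, at 1407 to 1471 CPM in WT and 1422 to 1581 CPM in Il21r-/-.

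In the day trend, 2 of 13 tested genes of sterol uptake, storage and transport passed, both falling. On the log2 scale the trend was -0.16 per day for Npc1 (SE 0.025, adjusted p = 0.0154, edgeR) and -0.11 per day for Lipa (SE 0.020, adjusted p = 0.0234). Of 16 further genes of fatty acid synthesis and elongation 1 passed, Agpat3, an acyltransferase of phospholipid synthesis, at -0.09 per day (SE 0.017, adjusted p = 0.0274). Of all genes tested 4.43% passed and 3.36% passed as falling. Without the WT library of day 7, 0 of all genes passed in the day trend.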
